A study of Homo sapiens with 4 samples.

Results

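The regions described are narrow H3K27me3 peaks called after AKBA treatment in places where no peak was called nearby in the DMSO culture. A peak of the AKBA list was taken when it was under 2000 bp wide and when the nearest edge of a DMSO peak on its chromosome lay more than 100 kb away. This gave 1811 peaks, called distant AKBA peaks here, out of 13155 in the AKBA list and 22045 in both lists together. They were chosen by their width and by their distance from the other list, so neither property is a finding about them, and no test was applied to either. "Distant" describes the peak lists alone: where the DMSO list has no peak, the mark may be present at a level that was not called.

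The samples were HaCaT cells, an immortalised line of human keratinocytes, kept for 12 hours in medium with AKBA or with its solvent DMSO. AKBA is the usual short name of an acetylated boswellic acid, a compound of frankincense. The labels give neither the full name nor a dose. The groups are 1 AKBA H3K27me3 library, 1 DMSO H3K27me3 library, and 1 input DNA library each for AKBA and DMSO, of which the input libraries had no values used here. All cells were of the same line, no genetic change is named in the labels, and with 1 library per condition there is no replicate check and no p-value for the treatment. Intervals given below are 95% intervals, exact binomial for shares and order-statistic for medians. They cover counting error among peaks alone, as if each peak were independent, and say nothing of how cultures vary. Read depth is unknown, because a peak list holds no read numbers.

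H3K27me3 stands for histone H3 trimethylated at lysine 27, a mark written by the EZH enzymes of Polycomb repressive complex 2. It is read by complexes that compact chromatin and is associated with genes kept silent in a given cell type. Its strongest sites in most cells are broad domains over CpG-rich promoters of developmental regulators, whereas a low and diffuse level covers long gene-poor stretches between them. In a bulk library a site marked in few cells and a site marked weakly in all cells cannot be told apart. The files give hg19 coordinates, whereas the gene and promoter tables at hand belong to another build, so positions are given without gene names and no sequence is printed.

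The distant AKBA peaks made up 13.8% of the AKBA list (interval 13.2 to 14.4%) and 20.3% of the 8925 AKBA peaks without any DMSO overlap, which were themselves 67.8% of the list. They were small, and together they covered 1034 kb, or 7.05% of the bases called in the AKBA list. The same rule with the lists exchanged gave 497 distant DMSO peaks of 8890, or 5.59% of the DMSO list (interval 5.12 to 6.09%), which covered 198 kb. Of the DMSO list, 45.5% had no AKBA overlap. Distant AKBA peaks were thus 3.64 times as many as distant DMSO peaks. That ratio was far smaller when the AKBA list was cut by score to the length of the DMSO list, which changes the number and the scores of its peaks together. When each list was held to its 8890 highest-scoring peaks, 952 distant AKBA peaks stood against 837 distant DMSO peaks, a ratio of 1.14. Peaks were ranked by the score that the authors gave each peak, whose scale is not stated in the files. The 952 peaks are all among the 1811, because the DMSO list stays whole in that setting. The other 859 distant AKBA peaks had scores below 2.64, the lowest score kept. The exchange also moves the DMSO number, since removing low-scoring AKBA peaks leaves more DMSO peaks without a near neighbour.

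The distance limit did not separate a class of its own. Distances from a distant AKBA peak to the nearest DMSO peak had a median of 245 kb, with quartiles of 150 and 467 kb and a maximum of 4347 kb. Between 100 and 200 kb away lay 743 of them (41.0%), and 136 (7.51%) had no DMSO peak within 1 Mb. Just inside the limit, a peak of 289 bp on chromosome 14 from 56777041 to 56777329 lay 100.3 kb from a DMSO peak, and one of 1089 bp on chromosome 7 from 4477116 to 4478204 lay 100.4 kb away. Just outside it, a peak of 1120 bp on chromosome 5 from 7952268 to 7953387 lay 99.99 kb from a DMSO peak, and one of 214 bp on chromosome 9 from 89457966 to 89458179 lay 99.95 kb away.

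The density of narrow AKBA peaks without DMSO overlap was lower at every further step of distance, with no break at 100 kb. Density here is the number of such peaks per Mb of sequence lying at that distance from the nearest DMSO peak, within the span between the outermost peaks of each chromosome. It was 34.5 per Mb within 5 kb of a DMSO peak, 10.9 per Mb at 10 to 20 kb and 3.57 per Mb at 50 to 100 kb. It was 1.79 per Mb at 100 to 200 kb, 0.946 per Mb at 200 to 500 kb, 0.569 per Mb at 500 to 1000 kb and 0.234 per Mb beyond 1 Mb. Sequence more than 100 kb from a DMSO peak made up 2182 Mb, or 74.6% of the 2927 Mb between outermost peaks, and held 0.830 distant AKBA peaks per Mb. Sequence within 100 kb of a DMSO peak held 9.28 narrow AKBA peaks without overlap per Mb, 11.2 times that density.

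Narrow DMSO peaks likewise thinned out with distance from AKBA peaks. Their density was 17.1 per Mb within 5 kb, 0.478 per Mb at 100 to 200 kb and 0.0827 per Mb beyond 1 Mb. The AKBA density was 2.01 times the DMSO density in the nearest step, 4.12 times at 50 to 100 kb and 2.83 times beyond 1 Mb. At 8890 peaks per list the densities were closer together. At 50 to 100 kb they were 1.95 per Mb for AKBA against 1.43 per Mb for DMSO, and at 100 to 200 kb 0.965 against 0.826 per Mb. They were 0.274 against 0.268 per Mb at 500 to 1000 kb, and 0.125 against 0.138 per Mb beyond 1 Mb. In that last step the DMSO density was the higher.

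**Figure D1:**
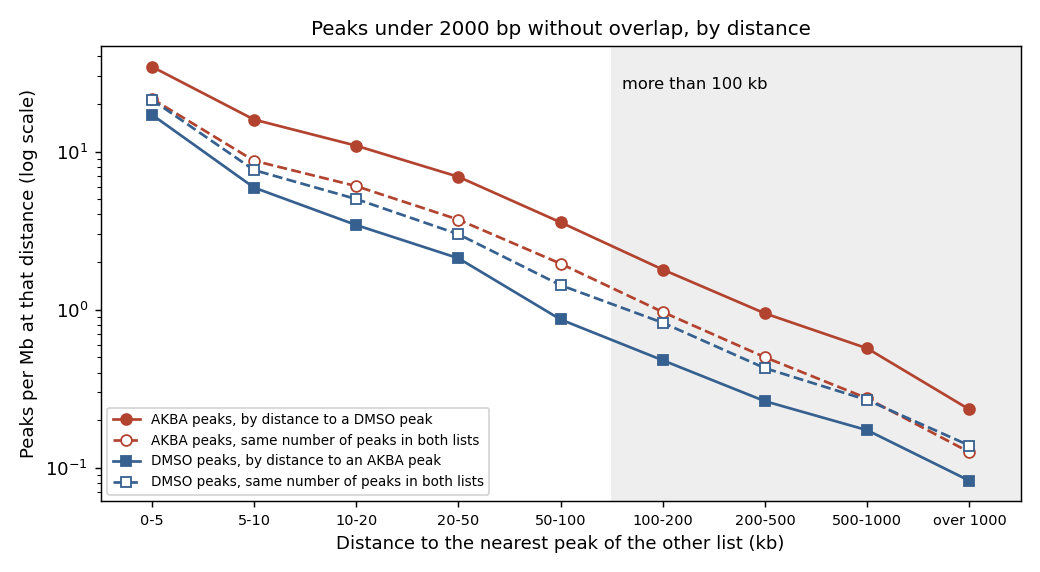
Number of peaks under 2000 bp without overlap per Mb of sequence (log scale) against distance to the nearest peak of the other list, for AKBA (circles) and DMSO (squares), with the lists as deposited (filled, solid) and with equal numbers of peaks per list (open, dashed). All 4 lines slope down without a break at 100 kb. The open symbols lie closer together than the filled ones, at 0.965 for AKBA and 0.826 for DMSO per Mb at 100 to 200 kb.

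Each of the 23 chromosomes in the lists had distant AKBA peaks. Per Mb of chromosome span they were most frequent on chromosome 18, with 77 peaks or 0.994 per Mb, on chromosome 10, with 108 peaks or 0.799 per Mb, and on chromosome 22, with 27 peaks or 0.792 per Mb. They were least frequent on chromosome X, with 31 peaks or 0.210 per Mb, on chromosome 4, with 44 peaks or 0.231 per Mb, and on chromosome 6, with 84 peaks or 0.493 per Mb. Most of chromosomes X and 4 was open to them: 89.6% of the span of X and 88.5% of that of chromosome 4 lay more than 100 kb from a DMSO peak. Counted per Mb of that open sequence, X held 0.234 and chromosome 4 held 0.261, against 1.32 on each of chromosomes 15 and 22.

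Chromosomes rich in AKBA peaks as a whole also held more distant ones in the sequence open to them. Across the 23 chromosomes, the density of distant AKBA peaks in open sequence and the density of all AKBA peaks had a Spearman rho of 0.849. All points come from the same pair of libraries, and the distant peaks are part of the AKBA list, so the value is a description. The share of a chromosome's AKBA peaks that were distant ran the other way, with a rho of -0.872. The number of AKBA peaks divides that share and also sets the density, which favours a negative value, so this too is a description. The share was 24.7% on chromosome 21 (20 of 81 peaks), 20.9% on chromosome 18 and 20.5% on chromosome 2. It was 5.16% on chromosome 20 (38 of 736 peaks) and 8.15% on chromosome 17. The interval of a chromosome's share included the 13.8% of the whole list on 11 of the 23 chromosomes.

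Every one of the 23 chromosomes held more distant AKBA than distant DMSO peaks, both in number and per Mb of open sequence. On chromosome 18 there were 77 distant AKBA peaks and 9 distant DMSO peaks, on chromosome 20 there were 38 and 4, and on chromosome 21 there were 20 and 1. On chromosome 19 the numbers were closest in proportion, at 40 and 19. With equal numbers of peaks per list, 16 chromosomes held more distant AKBA peaks, 5 held more distant DMSO peaks and 2 held equal numbers.

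**Figure D2:**
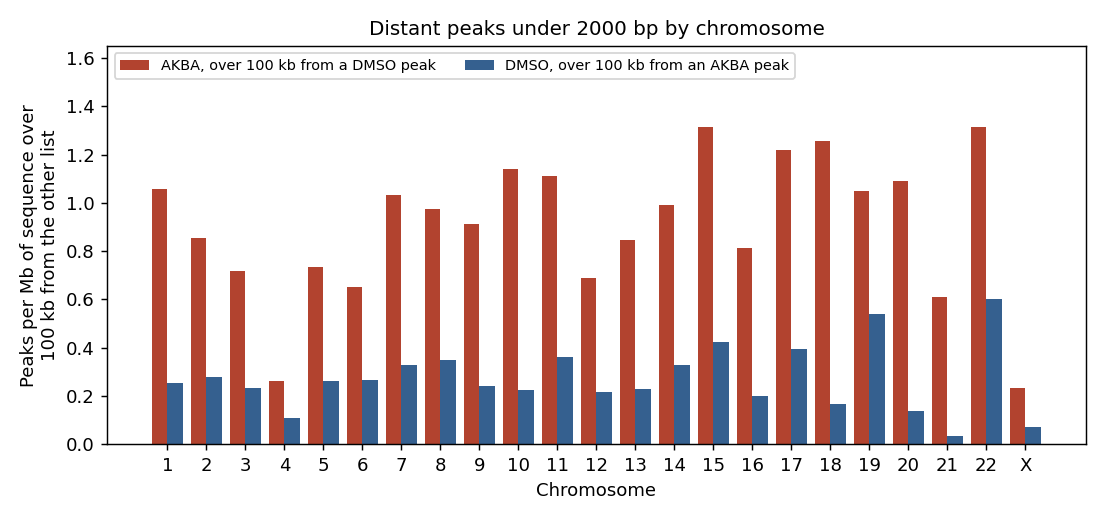
Distant peaks under 2000 bp per Mb of sequence more than 100 kb from the other list, by chromosome, with AKBA at the left and DMSO at the right of each pair. AKBA bars are higher on all 23 chromosomes, lowest on X (0.234 per Mb) and chromosome 4 (0.261 per Mb).

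The outer parts of the span between outermost peaks held slightly more distant AKBA peaks than their share of the sequence. They are counted from the outermost peak, which need not lie at the chromosome end. Within 5 Mb of the outermost peak of a chromosome lay 166 of the 1811 (9.17%, interval 7.88 to 10.6%), against 24.7% of the 6911 narrow AKBA peaks that had no overlap but a DMSO peak within 100 kb, called near AKBA peaks below, and 21.9% of the whole AKBA list. Distant DMSO peaks had a similar share there, 8.05% (40 of 497). These outer parts made up 7.86% of the span between outermost peaks. Of their sequence, 51.8% lay more than 100 kb from a DMSO peak, against 74.6% of the whole span. In that open sequence the outer parts held 1.39 distant AKBA peaks per Mb, against 0.830 per Mb over all open sequence. Within 1 Mb of a stretch of at least 3 Mb without a peak of either list lay 148 distant AKBA peaks (8.17%, interval 6.95 to 9.53%). The share was 3.05% for near AKBA peaks and 4.68% for the whole AKBA list. Among distant DMSO peaks it was 13.3% (66 of 497, interval 10.4 to 16.6%). The rule bears on these contrasts: such a stretch holds no DMSO peak, whereas a near AKBA peak always has a DMSO peak within 100 kb. Such stretches can be centromeres or gene-poor regions, which the files do not tell apart.

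The surroundings of distant AKBA peaks are given as a description, because the rule bears on them: it leaves no DMSO peak within 100 kb of a distant peak, whereas a near AKBA peak has at least 1. Within 1 Mb on each side a distant AKBA peak had a median of 9 other AKBA peaks (quartiles 4 and 17) and 5 DMSO peaks (quartiles 2 and 10). A near AKBA peak had a median of 24 other AKBA peaks and 15 DMSO peaks. No other AKBA peak of any kind lay within 1 Mb of 62 distant AKBA peaks. An AKBA peak of at least 2 kb lay within 100 kb of 38 distant AKBA peaks (2.10%), against 3314 near AKBA peaks (48.0%). The rule largely fixes this contrast, since 1644 of the 1847 AKBA peaks of that width overlapped a DMSO peak. The 2.10% also moved with the settings, to 12.3% at a distance over 50 kb, 8.54% with peaks within 5 kb joined, 4.80% at a score of at least 3 and 1.16% at 8890 peaks per list. The nearest AKBA peak of any kind was another distant one for 1117 of the 1811 (61.7%). For 367 it was a near AKBA peak, for 307 an AKBA peak overlapping a DMSO peak, and for 20 a distant AKBA peak of 2 kb or more.

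Another distant AKBA peak lay within 100 kb of 825 of them (45.6%, interval 43.2 to 47.9%), and the median distance to the nearest was 131 kb, with quartiles of 20.5 and 746 kb. Close pairs were fewer: 299 (16.5%) had another within 10 kb and 20 within 1 kb, and the closest pair was 859 bp apart. Joined across up to 100 kb, the 1811 peaks formed 1302 units, of which 986 were single peaks, 207 held 2 peaks, 62 held 3 and 47 held 4 or more. The 47 largest units held 225 peaks. Other AKBA peaks under 2000 bp more often had another of their set within 100 kb. The share was 87.2% for near AKBA peaks and 51.4% for those overlapping a DMSO peak. Set size and the rule bear on this contrast, so it is a description alone. The 6911 near AKBA peaks are confined to 744 Mb, whereas the 1811 distant ones are spread over 2182 Mb. Distant DMSO peaks were more scattered than distant AKBA peaks, with 17.1% (85 of 497, interval 13.9 to 20.7%) within 100 kb of another and a median of 1269 kb.

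That contrast in clustering was smaller between lists cut by score to equal numbers, a step that changes both the number and the scores of the peaks. With equal numbers of peaks per list, 30.6% of the 952 distant AKBA peaks and 26.2% of the 837 distant DMSO peaks had another of their set within 100 kb. Among the 497 highest-scoring distant AKBA peaks, as many as there were distant DMSO peaks, the share was 19.9%, against 17.1% for DMSO.

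**Figure D3:**
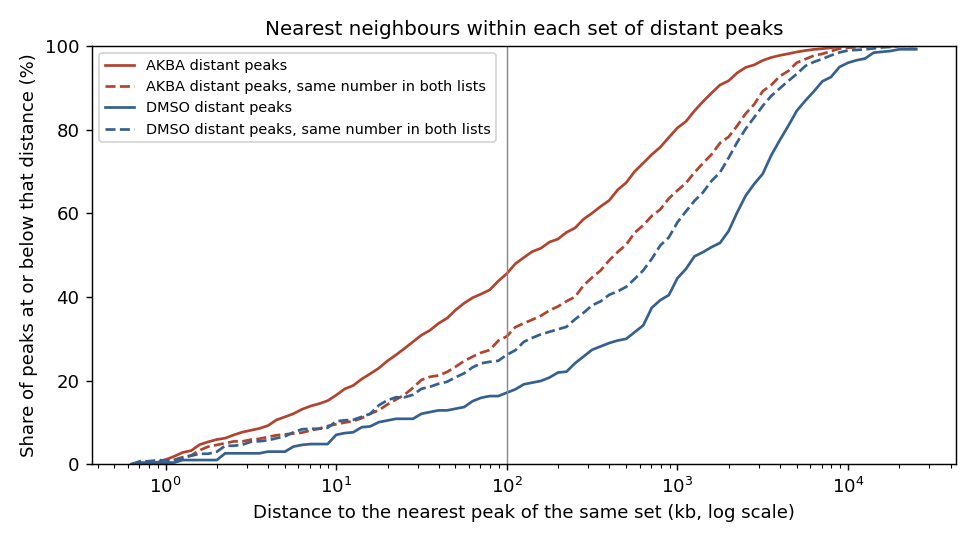
Cumulative share of distant peaks against the distance to the nearest peak of the same set (kb, log scale), for AKBA and DMSO, with the lists as deposited (solid) and with equal numbers of peaks per list (dashed). At the grey line, 100 kb, the solid lines stand at 45.6% for AKBA and 17.1% for DMSO, and the dashed ones at 30.6% and 26.2%.

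The largest run held 9 distant AKBA peaks on chromosome 7 from 42316973 to 42546341, a span of 229 kb. Its peaks were 214 to 1501 bp wide, scored 2.22 to 3.62 and together covered 2.13% of the span. The width limit keeps the coverage of any such run low. The nearest DMSO peaks lay 356 kb before it and 178 kb after it. The next run, also on chromosome 7 from 98176654 to 98258450, packed 7 peaks into 81.8 kb and had a median score of 3.85, above the median of 2.67 of all distant AKBA peaks. A run of similar length on chromosome 18 from 75365885 to 75445789 held 7 peaks in 79.9 kb, with scores of 2.21 to 5.12. The remaining runs of 7 were looser, on chromosome 8 from 20676125 to 21016159 (340 kb) and on chromosome 10 from 44097732 to 44361615 (264 kb), with median scores of 2.36 and 2.40. Each of these 5 runs contained at least 1 peak of 214 bp, the narrowest width in the list. None of the 5 contained another AKBA peak between its members.

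**Figure D4:**
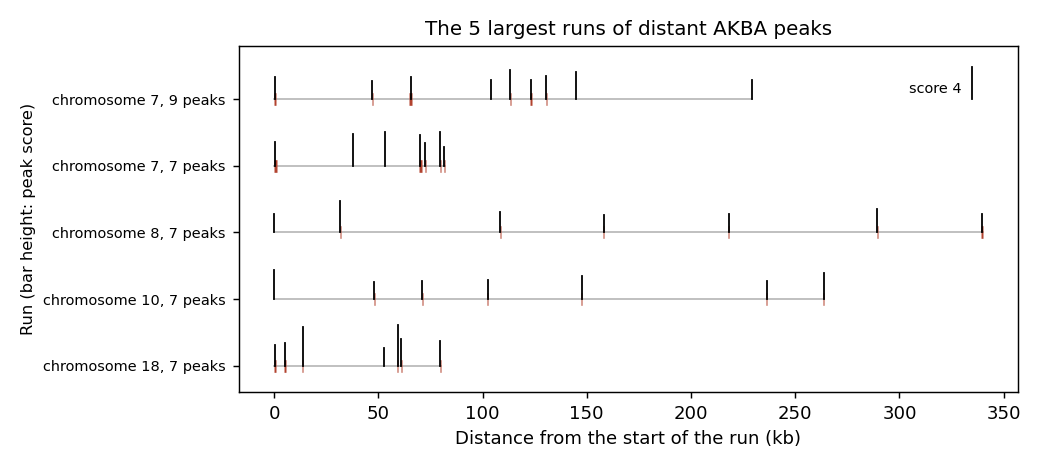
The 5 largest runs of distant AKBA peaks, joined across up to 100 kb, drawn from the start of each run (kb). Red blocks are peaks at their true width and the height of each black line is the authors' score, with a line for a score of 4 at the upper right; the peaks cover between 1.09% and 5.18% of the runs.

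Grouped as single, in runs of 2 or 3 and in runs of 4 or more, distant AKBA peaks had close median widths and scores. For single ones the median width was 461.5 bp (interval 440.0 to 509.0), those in runs of 2 or 3 a median of 497 bp (467 to 538) and those in runs of 4 or more a median of 477 bp (378 to 553). Their median scores were 2.67, 2.69 and 2.63, in the same order. The intervals of these medians overlap. By single run size the median widths varied more. They were 484 bp in runs of 2, 524.5 bp in runs of 3 and 526.5 bp in runs of 4 and of 5. In runs of 6, in runs of 7 and in the run of 9 they were 369.5, 424.5 and 310 bp, from 36, 28 and 9 peaks.

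Stretches between neighbouring DMSO peaks differed widely in what they held. Of 2518 such stretches longer than 200 kb, 925 (36.7%) contained at least 1 distant AKBA peak and 62 contained 5 or more. The share with a peak grew with length: it was 19.4% for stretches of up to 0.5 Mb, 55.2% for those of 1 to 2 Mb and 71.7% for the 60 stretches over 5 Mb. The rule leaves more open sequence in a longer stretch, so this rise is shaped by length. The density in the sequence open to distant peaks went the other way, at 2.33, 0.943 and 0.224 per Mb for the same 3 classes. The greatest number in a stretch was 9, which was reached 6 times. The shortest of the 6, of 0.763 Mb, is the one around the largest run on chromosome 7. On chromosome 13 between 43159920 and 44313458, 9 peaks in 1.15 Mb formed 3 units, the largest of 6 peaks. On chromosome 21 between 44074801 and 46130735 there were 9 of the 20 distant AKBA peaks of that chromosome. The others lay on chromosome 1 between 116381274 and 119529138 and between 232941583 and 235813723, and on chromosome 9 between 81166857 and 86127716, where 9 peaks were spread over 8 units.

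Widths of distant AKBA peaks had a median of 480 bp (interval 458 to 510) and quartiles of 273 and 790 bp. The narrowest width, 214 bp, was shared by 263 of them (14.5%, interval 12.9 to 16.2%), and no other width occurred more than 8 times. At the other end, 195 (10.8%) reached 1 kb. Near AKBA peaks were somewhat wider, with a median of 562 bp (547 to 576), 10.1% at 214 bp and 17.0% of at least 1 kb. The 2586 AKBA peaks under 2000 bp that overlapped a DMSO peak had a median of 1006.5 bp (977 to 1027), 2.09% at 214 bp and 50.3% of at least 1 kb. A wider peak meets a DMSO peak more readily, so width bears on this sorting and the contrast is a description alone. The width limit cut off little: 31 AKBA peaks of 2000 bp or more were as far from a DMSO peak, the widest of them measuring 3164 bp, on chromosome 1 from 25944222 to 25947385. In the DMSO list, 1 peak of 2000 bp or more was as far from an AKBA peak. At 8890 peaks per list these numbers were 24 for AKBA and 4 for DMSO.

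The share of the AKBA list taken up by distant peaks was smaller among wide and high-scoring peaks. By deciles of width it was 24.9% in the lowest, 7.83% in decile 8 and 0 of 1316 peaks in the highest, where the width limit leaves none. The limit also cuts into decile 9, so the fall past decile 8 is shaped by the rule. With no width limit, 53 of 1315 peaks in decile 9 were more than 100 kb from a DMSO peak, and 12 of 1316 in the highest. By score it was 24.0% in the lowest decile and 2.58% in the highest (34 of 1316 peaks). Within the distant AKBA peaks width changed little with distance from the DMSO list: the median was 498 bp at 100 to 200 kb, 481 bp at 200 to 500 kb, 464.5 bp at 500 to 1000 kb and 454 bp beyond 1 Mb. Median scores over the same steps were 2.68, 2.68, 2.61 and 2.68.

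**Figure D5:**
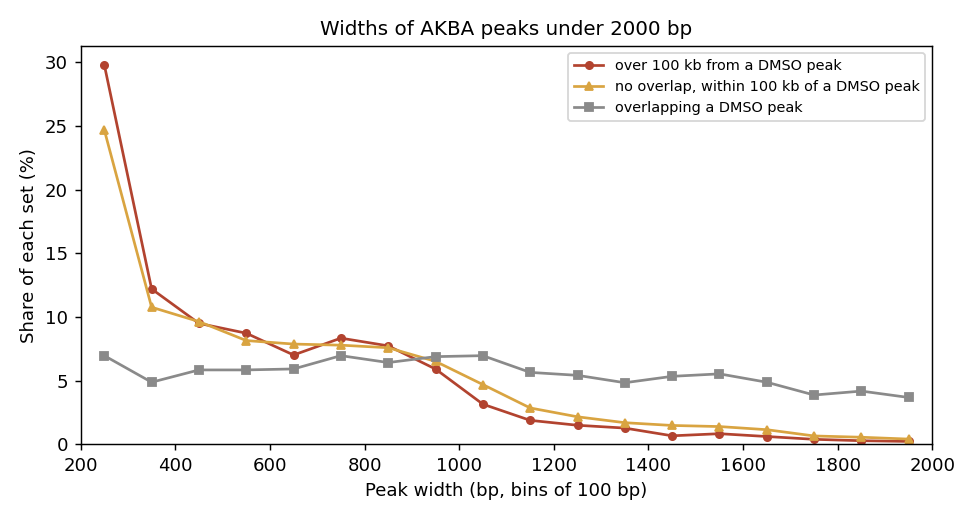
Share of each set (%) by peak width in bins of 100 bp, for AKBA peaks under 2000 bp that are distant from DMSO peaks (1811), near them without overlap (6911), or overlapping them (2586). Distant and near peaks pile up in the first bin and thin out past 1 kb, whereas overlapping peaks spread over the whole range. Width itself bears on whether a peak overlaps.

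Distant AKBA peaks of high score had a smaller median width, but wide ones did not score low as a group. Scores of all 1811 ran from 2.05 to 7.64 with a median of 2.67 (2.64 to 2.70) and quartiles of 2.34 and 3.25. Near AKBA peaks had a median of 2.74 and narrow AKBA peaks overlapping a DMSO peak a median of 3.50. A score of at least 3 was reached by 584 distant AKBA peaks, whose median width was 328 bp, and a score of at least 5 by 38, whose median width was 278 bp. Of the 584, 75 were 1 kb or wider, and of the 38, 3 were, against 195 (10.8%) of all 1811. Distant AKBA peaks of 1 kb or more had a median score of 2.84, and those of 214 bp a median of 2.85. Width and score had a Spearman rho of -0.167 across the distant AKBA peaks, of -0.14 across near AKBA peaks, and of 0.244 across the narrow AKBA peaks that overlapped a DMSO peak. It was -0.361 across distant DMSO peaks and -0.287 across narrow DMSO peaks without overlap that had an AKBA peak within 100 kb. A negative value was thus not particular to distant AKBA peaks. Each value is a description across peaks of 1 library.

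The highest score, 7.64, belonged to a distant AKBA peak of 333 bp on chromosome 8 from 10192381 to 10192713. It was 196 kb from the nearest DMSO peak, and no other distant AKBA peak lay within 1 Mb. The second, on chromosome 7 from 27528659 to 27529549, was 891 bp wide with a score of 6.93 and had another distant AKBA peak 20.2 kb away. The next 3 were narrower: 267 bp on chromosome 14 from 75078391 to 75078657 (score 6.77), 254 bp on chromosome 15 from 62615579 to 62615832 (6.46) and 270 bp on chromosome 19 from 3802001 to 3802270 (6.24). The peak on chromosome 15 stood in a run of 3, and those on chromosomes 14 and 19 were single.

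At 1982 bp, with a score of 3.19, the widest distant AKBA peak was on chromosome 13 from 51132315 to 51134296. The second, of 1942 bp on chromosome 16 from 73418690 to 73420631, had a companion 1.12 kb away. The next were 1941 bp wide on chromosome 9 from 93141848 to 93143788, 1920 bp on chromosome 2 from 105640615 to 105642534, and 1883 bp on chromosome 12 from 53107804 to 53109686. The last of these was 706 kb from a DMSO peak. Just past the width limit were distant peaks of 2012 bp on chromosome 6 from 138481494 to 138483505 and of 2016 bp on chromosome 11 from 10696175 to 10698190. The 5 widest scored between 2.68 and 3.79.

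The most remote distant AKBA peak, on chromosome X from 30326870 to 30327882, was 1013 bp wide, lay 4347 kb from a DMSO peak and was also 5287 kb from any other AKBA peak. On chromosome 9, a peak of 229 bp from 10613707 to 10613935 stood alone in the same way, 3732 kb from a DMSO peak and 3731 kb from any AKBA peak, with a score of 4.30. The other remote peaks had company of their own list at less distance. A peak of 713 bp on chromosome 3 from 102338035 to 102338747 was 3961 kb from a DMSO peak and 1730 kb from another distant AKBA peak. On chromosome 16 a peak of 722 bp from 61589651 to 61590372 was 3564 kb from a DMSO peak, with another distant AKBA peak at 1637 kb. On chromosome 7 a peak of 1371 bp from 12230342 to 12231712 was 3492 kb away, with another at 358 kb. Apart from the peak on chromosome 9, these remote peaks had scores of 2.15 to 2.73.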

How the data were processed

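The data are H3K27me3 ChIP-seq peak lists of HaCaT cells, with 1 library per condition. Per the submitters' processing notes the build was hg19 and the tools were BWA, STAR and MACS2, without versions. No peak threshold, use of input or duplicate handling is stated in the labels. Each deposited list gives chromosome, start, end, name and 1 score per peak, and the scale of this deposited score is not stated. Scores were used to rank, filter and describe peaks within a list. In the setting with a score of at least 3, the same cut was applied to both lists, whose scores may not be alike in scale. The smallest width and smallest gap were 214 and 857 bp in the AKBA list and 160 and 641 bp in the DMSO list, so limits in bp do not bear on both alike.

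Distances are bases between peak edges, and coordinates are 1-based. Computation used scipy 1.17.1, pandas 2.3.3 and numpy 2.4.6 under Python 3.11.15. Both counts of distant peaks equalled those from bedtools 2.31.1, and the selection was checked on 762 simulated peaks at known distances. Shares have exact Clopper-Pearson 95% intervals and medians have order-statistic 95% intervals. No test across libraries was possible. The regions named were the 5 highest-scoring, 5 widest and 5 most remote members, the 5 largest runs, the stretches with most members, the chromosomes at both ends of the density, and the 2 peaks on each side of each limit. Other regions, including the widest peak past the width limit, were chosen after their values were seen. The members and lists were chosen with earlier results of these data known. Alternatives were other distances, widths and scores, equal numbers of peaks, and joined peaks.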

Additional observations from a re-analysis of the deposited data

How the results depend on the processing

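No paired analysis was possible because each condition has 1 library, and leaving out a replicate was likewise not possible. In each setting below, the values are the number of distant AKBA peaks, their share of the AKBA list, the share of the DMSO list that is distant from AKBA peaks, and the share of distant AKBA peaks with another within 100 kb. A distance over 50 kb gave 2837 peaks, 21.6%, 8.74% and 51.5%, and one over 250 kb gave 897, 6.82%, 2.71% and 39.7%. A score of at least 3 in both lists gave 1332, 20.4%, 10.2% and 39.2%. With the lists whole, 584 distant AKBA peaks had such a score. The rest of the 1332 counted as distant only because DMSO peaks of lower score were removed as well. The same number of highest-scoring peaks gave 952, 10.7%, 9.42% and 30.6%, with a median width of 405 bp. This setting drops only AKBA peaks, by construction, and brought the ratio of distant AKBA to distant DMSO peaks to 1.14. In the settings of distance, width, score, narrowest width and joining it was between 2.88 and 3.80. Joining peaks within 5 kb gave 1604, 16.1%, 7.32% and 37.2%. A width under 1000 bp gave 1616, 12.3%, 5.39% and 42.1%, with a median width of 427.5 bp. Without the narrowest width of each list, 1743 peaks were distant and the median was 564 bp. These 1743 include peaks that became distant only once the narrowest DMSO peaks were dropped. Clustering within 50 and 250 kb gave 36.9% and 56.5%. The 497 highest-scoring distant AKBA peaks, a choice made after seeing the data, gave 19.9% and a median width of 316 bp. Of the values of these results under the alternatives, 27 moved out of their interval or by over 1.5 times the count, and 17 did not. Of the 15 named peaks, 7 remained beyond 250 kb, 9 at a score of at least 3 and 8 under 1000 bp. All of this rests on 1 library per condition of unknown depth.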
